A study of Homo sapiens with 4 samples.

Results

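Keratins are the intermediate filament proteins of epithelial cells, and each filament is built from a type I and a type II chain. In basal cells of squamous epithelium KRT5 is a principal type II chain, and KRT15 and KRT17 are type I chains. Desmosomes join these filaments from cell to cell. Their cadherins (desmogleins and desmocollins) meet between the cells, plakoglobin binds the cadherin tails, and plakins such as desmoplakin tie the plaque to keratin. N6-methyladenosine (m6A) is a modification of bases inside mRNA, often found near stop codons and in long exons.

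The 10 genes described here are the basal keratins KRT5, KRT15 and KRT17, the cadherins DSG2 and DSC3, the plaque proteins JUP, DSP and PPL, the tetraspan protein PERP, which is needed for stable desmosomes, and SFN. SFN is a 14-3-3 adaptor of stratified epithelium and belongs to neither group by structure. They were looked up by gene symbol in the authors' lists, which held 8220 genes with a peak in either, and all 10 had at least 1 peak. As the genes were chosen with earlier results of these data known, this was not an outcome. The cells were CaSki, an established line of cervical squamous carcinoma that carries integrated papillomavirus. The heat group had 60 min at 42 °C and the control group stayed at 37 °C, and the labels name no genetic change in either. Each condition had 1 library of RNA immunoprecipitated with an m6A kit and 1 input library.

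Each listed peak carries a fold enrichment (immunoprecipitated signal over the background that the peak caller estimated) and a significance score, which is the p-value on a minus 10 log10 scale. Both are the authors' values for single peaks, ranked within a list and not compared between lists as a change. Where a limit on either was tried, 1 limit was set for both lists, although their median folds differ. The heat list held 15472 peaks in 7112 genes with a median fold of 31.6, and the control list 14367 peaks in 7138 genes with a median fold of 43.3. No difference below has a replicate check, and no p-value was computed between conditions. RNA amounts were not analysed here, so a change in methylation and a change in the amount of RNA cannot be told apart. A missing peak can lie under the lowest listed score of 50 or among the numbered peaks that the lists leave out, since 23.9% of the peak numbers are listed for heat and 24.6% for control. Of 12 squamous epithelium markers 10 had a peak, with 35 heat and 13 control peaks, and KRT5, PERP and SFN are among these markers. Of these 10 markers, 6 had more peaks in heat and 2 fewer, against 31.5% and 28.6% of all genes. KRT5, PERP and ITGB4 were heat only and S100A2 was control only, beside 13.2% and 13.5% of all genes. Many of the heat peaks came from COL17A1 (11 heat, 1 control) and ITGB4 (8 heat, 0 control), which are counted again with the hemidesmosome below. Above a fold of 36.5, the median of both lists pooled, the squamous markers had 5 heat and 3 control peaks. Of 8 glandular markers 6 had a peak, with 9 heat and 7 control peaks, and EPCAM was heat only and MUC16 control only. Of 8 fibroblast and mesenchymal markers 2 had a peak, COL1A1 in both lists and VIM in heat only, and of 8 immune and endothelial markers CDH5 had peaks, in control only.

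The basal keratins, JUP and PERP had peaks in the heat list and none in the control list, whereas DSC3 had a peak in the control list and none in the heat list. DSG2, DSP, PPL and SFN had peaks in both. Thus 5 of the 10 genes were heat only and 1 was control only. The 10 genes were chosen with earlier results of these data known. The shares of all genes beside them are therefore a description, and an excess was not tested. Among all 8220 genes 13.2% were heat only, 13.5% control only and 73.4% in both. By number of peaks, 6 of the 10 genes had more in heat and 2 had fewer, against 31.5% and 28.6% of all genes. Together the 10 genes had 24 peaks in heat and 17 in control. The 9 peaks of the 5 heat-only genes had folds of 7.55 to 28.1, all below the median of the heat list. When only peaks above a fold of 36.5, the median of both lists pooled, were kept, none of the 5 had a peak left, and the 10 genes had 4 heat and 11 control peaks. That limit also kept fewer peaks of the whole heat list (6405) than of the control list (8488).

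**Figure D1:**
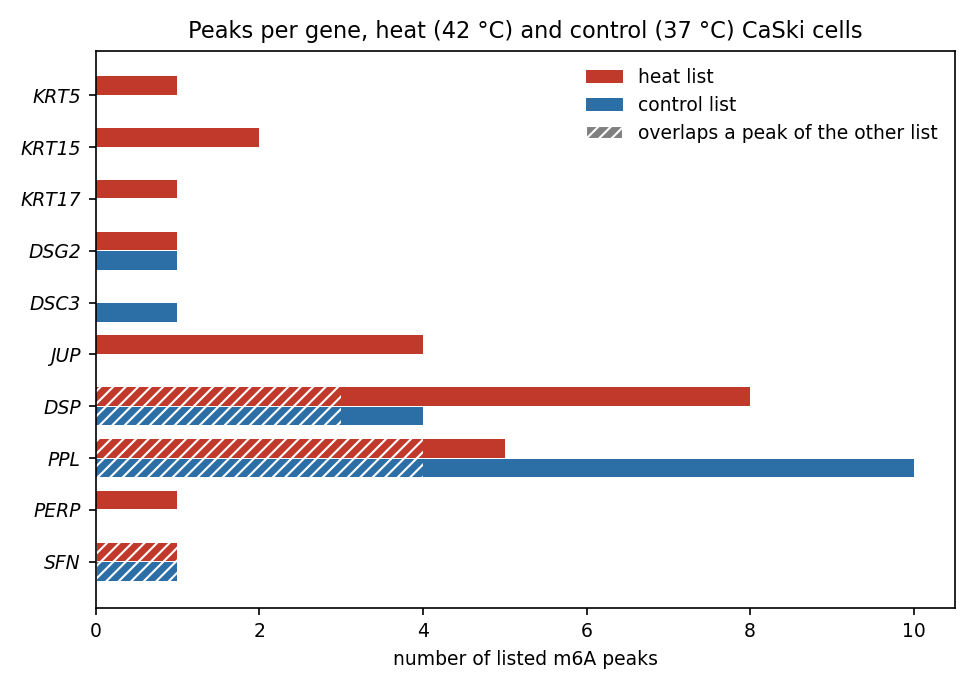
Number of listed m6A peaks (x axis) for each of the 10 genes, with the heat list above the control list and hatching where a peak overlaps a peak of the other list. KRT5, KRT15, KRT17, JUP and PERP have heat bars only, DSC3 has a control bar only, DSP has 8 heat and 4 control peaks and PPL 5 and 10.

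Peaks of the 2 conditions were called shared when they overlapped by at least 1 base. Of the 24 heat peaks 16 had no control partner, while 33.3% of all heat peaks had none. Of the 17 control peaks 9 had no heat partner, against 28.3% of all control peaks. The 8 shared peaks lay in DSP (3), PPL (4) and SFN (1), and 7 of them had the same start and end in both lists. By length the overlap was greater. In both lists the same 11674 bases were covered. This is 64.8% of the 18011 bases under heat peaks of these genes and 76.6% of the 15245 bases under their control peaks. The matching share over all peaks is not given here. Shared peaks were long and highly scored, with a median of 771 bases and a median score of 1770 in heat and 1555 in control. Unshared peaks had a median length of 217.5 bases and a score of 159.7 in heat, and 147 bases and a score of 124 in control. The whole lists had the same contrast, so it is not particular to these genes. Over all shared peaks the medians were 633 bases and a score of 324 in heat, and 645 and 443 in control. Over all unshared peaks they were 206 bases and a score of 104 in heat, and 334.5 and 106 in control.

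KRT5, the type II keratin of basal cells, had 1 heat peak at chromosome 12, 52908359 to 52909024 (hg19), with a fold of 14.02 and a score of 599.8. The fold was higher than that of 7.9% of the heat peaks and the score higher than that of 75.4%. In the control list the nearest peaks on either side belonged to KRT6B and KRT8, and 5 peak numbers between them were unlisted. Within the heat list the KRT5 peak was therefore well scored but weakly enriched. KRT15, a type I keratin of basal cells, had 2 heat peaks on chromosome 17. The longer, 39669998 to 39671944, was 1947 bases with a fold of 28.1 and a score of 1577. The other, 39674582 to 39675452, had a fold of 10.6 and a score of 53.01, close to the lowest listed score. KRT17, a type I keratin induced in stressed and proliferating keratinocytes, had 1 heat peak of 553 bases at chromosome 17, 39780330 to 39780882. Its fold of 16.2 was below the heat list's median and its score of 833 above the median of 203. KRT17 resembles KRT14 and KRT16 in sequence and has pseudogene copies, so reads may be split among them and its assignment is uncertain.

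The keratin genes lie in clusters, type I on chromosome 17 with JUP nearby and type II on chromosome 12, so neighbours measured in the same libraries can be set beside the 3 keratins. From KRT13 to JUP the heat list held 13 peaks in 7 genes and the control list 4 peaks in 4 genes. KRT13, KRT9 and KRT14 had 1 peak in each list, and HAP1, which is no keratin, had 3 in heat and 1 in control. For KRT14, the type I partner of KRT5, the peak had a fold of 15.8 and a score of 3100 in heat, and a fold of 11.0 and a score of 662 in control. KRT14 was thus listed in both conditions while its partner KRT5 was listed in heat only. Because reads may be split among KRT14, KRT16 and KRT17, the assignment of the KRT14 peak is uncertain too. From KRT80 to KRT8 on chromosome 12 the heat list held 11 peaks in 8 genes and the control list 7 peaks in 5 genes. KRT8, a keratin of simple epithelia, had 2 heat peaks and 1 control peak.

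**Figure D2:**
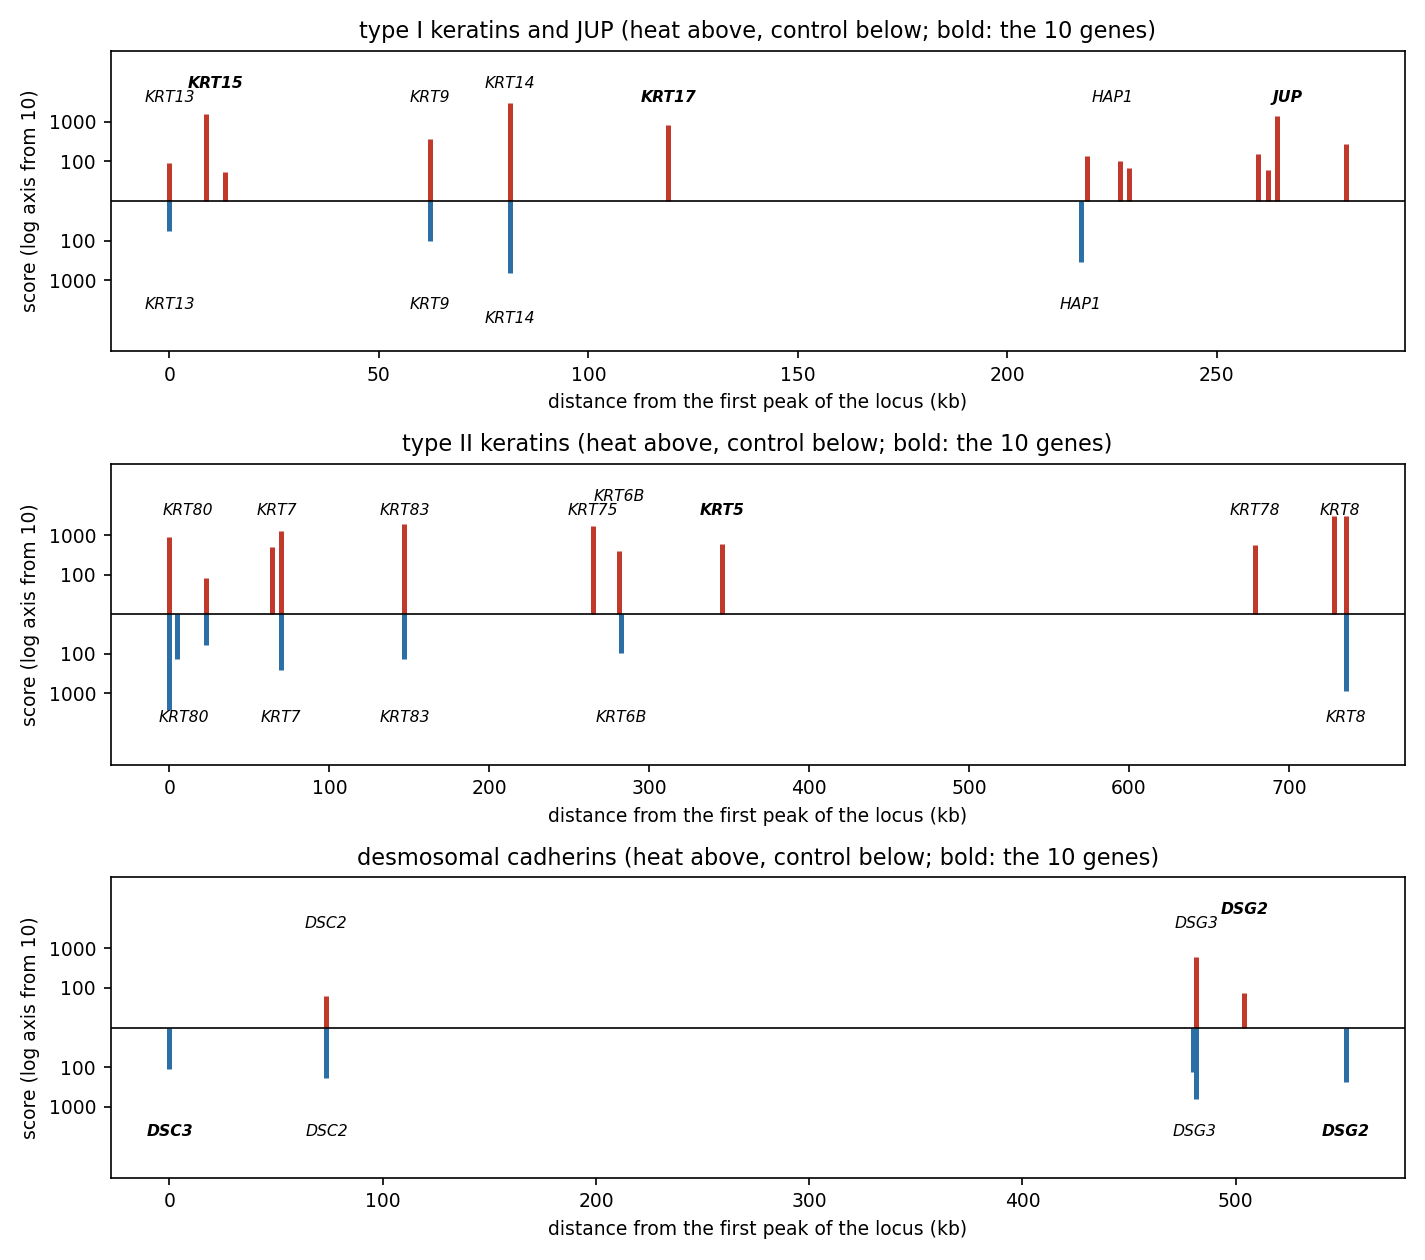
Peaks along the type I keratin and JUP region, the type II keratin region and the desmosomal cadherin region, as distance from the first peak in kb (x axis) and significance score on a log axis from 10, heat upwards and control downwards. In the type I region KRT15, KRT17 and JUP have lines above the axis only, while KRT13, KRT9 and KRT14 have lines on both sides. In the type II region KRT5, KRT75 and KRT78 have lines above the axis only, and in the cadherin region DSG2 has a heat line and a control line at different places.

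Because the treatment was heat and KRT5, JUP and PERP were listed in heat only, their promoters were searched for the paired core of the heat shock element, GAANNTTC or TTCNNGAA, each of which reads the same on both strands. The RefSeq windows (GRCh38.p14) run from 250 bases before to 50 bases after a start, and 7 of the 10 genes have one, JUP having 2. KRT15, KRT17 and PPL have none, so KRT15 and KRT17, also heat only, were not searched. The 100 bases before each start are shown for these 3 genes, 5′ to 3′ on the minus strand, with a match in capitals.
KRT5, chr12:52520395-52520494: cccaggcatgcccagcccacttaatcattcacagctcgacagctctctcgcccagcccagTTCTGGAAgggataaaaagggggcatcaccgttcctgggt
JUP, chr17:41786712-41786811: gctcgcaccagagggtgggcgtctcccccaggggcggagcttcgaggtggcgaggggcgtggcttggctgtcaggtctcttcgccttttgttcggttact
JUP, chr17:41785977-41786076: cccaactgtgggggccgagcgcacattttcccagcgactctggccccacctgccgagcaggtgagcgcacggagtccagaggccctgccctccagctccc
PERP, chr6:138107420-138107519: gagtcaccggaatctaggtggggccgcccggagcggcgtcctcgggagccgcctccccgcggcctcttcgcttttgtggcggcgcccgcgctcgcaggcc
KRT5 had 1 match, which began 40 bases before the start. None of the other 7 windows of these genes had one, and 13.5% of all 35116 windows did. The share among these genes, 1 of 8 windows, was near that of all windows. A match describes the letters and is not a measured binding site.

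The cadherins form the adhesive part of the desmosome, and both had short lists. DSG2, the desmoglein found in most epithelia, had 1 peak in each list at different ends of the gene. The heat peak was 233 bases at chromosome 18, 29078027 to 29078259, with a fold of 33.5 and a score of 74.4. The control peak was 2331 bases at 29125684 to 29128014, with a fold of 40.8 and a score of 243. They lay 47424 bases apart, and RefSeq places DSG2 on the plus strand, so the heat peak was on the 5′ side. A count by gene symbol therefore puts DSG2 in both lists although no base was covered in both. Both peaks had a listed false discovery rate of 100%, and with that limit lowered to under 100% DSG2 had no peak in either list. DSC3, a desmocollin of basal layers, had 1 control peak of 327 bases at chromosome 18, 28574012 to 28574338, with a fold of 42.7, a score of 111 and a listed false discovery rate of 100%. The nearest heat peaks were in KCTD1 and DSC2, with 16 unlisted numbers between them. Their neighbours DSC2 and DSG3 were listed in both conditions. DSC2 had 1 heat and 1 control peak, and DSG3 had 1 heat and 2 control peaks.

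JUP, or plakoglobin, is the catenin that links desmosomal cadherins to desmoplakin and also joins adherens junctions. It had 4 heat peaks over 21287 bases of chromosome 17 and no control peak. The best scored lay at 39925670 to 39925929, with a fold of 12.8 and a score of 1391, higher than that of 88.2% of the heat peaks. The peak at 39942155 to 39942461 had a fold of 26.0 and a score of 269. The remaining peaks, at 39921175 to 39921319 and 39923631 to 39923832, had folds of 7.55 and 9.80 and scores of 154.9 and 60.6. All 4 were short, 145 to 307 bases. The lowest of these folds was above that of 0.3% of the heat peaks. In the control list 4 numbers were unlisted between the flanking peaks of HAP1 and LEPREL4.

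DSP, or desmoplakin, is the plakin that anchors keratin filaments to the plaque. It had 8 heat peaks and 4 control peaks on chromosome 6, and 3 were shared. The longest, 7582875 to 7586778 in heat and to 7586775 in control, had a fold of 55.5 and a score of 3100 in heat, and a fold of 44.0 and a score of 2415 in control. The next, 7579508 to 7581802 in both lists, had a score of 3100 in both, with folds of 24.9 in heat and 46.1 in control. Both of these lie at the high-coordinate end, which is the 3′ side because RefSeq places DSP on the plus strand, and they made up 88.3% of the DSP bases under heat peaks and 94.9% of those under control peaks. The third shared peak, 7572075 to 7572301, had a fold of 14.4 and a score of 289.9 in heat, and a fold of 11.5 and a score of 69.9 in control.

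The extra DSP peaks in heat formed a row on the 5′ side of the shared ones. These 5 peaks ran from 7563969 to 7570796, each 51 to 155 bases long, 591 bases in all. Their folds were 12.2 to 24.8 and their scores 54.3 to 178, below the heat list's median score of 203, and each had a listed false discovery rate of 100%. Between the flanking control peaks of DSP, 2 numbers were unlisted. One control peak without a heat partner lay further to the 5′ side, at 7555951 to 7556053, with a fold of 24.5 and a score of 82.3. The difference in the number of DSP peaks thus came from short, low-scored regions. With a score above 227.7, the pooled median, DSP had 3 heat and 2 control peaks, and above a fold of 36.5 it had 1 and 2.

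PPL, or periplakin, is a plakin of the desmosome and of the cornified envelope. It had the opposite balance to DSP, with 5 heat and 10 control peaks on chromosome 16, of which 4 were shared with identical boundaries. The longest, 4932508 to 4936048, had a score of 3100 in both lists and folds of 39.5 in heat and 41.6 in control. The peak with the highest fold lay at the other end of the gene, at 4986985 to 4987136, with 91.0 and a score of 439 in heat, and 168 and a score of 694 in control. The peak at 4950965 to 4951090 had a fold of 32.6 in heat and 55.2 in control, and that at 4938103 to 4938219 a fold of 15.6 in heat and 27.6 in control.

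The 6 PPL peaks found in control only were 93 to 194 bases long, 810 bases in all, with folds of 13.6 to 44.5 and scores of 54.8 to 310. One heat peak, 4949224 to 4949385, had no control partner and had a fold of 29.1 and a score of 164. As in DSP, the long shared peak held most of the covered bases, 86.4% in heat and 74.6% in control, and the unshared peaks were short. PPL had fewer heat than control peaks at each of the other thresholds tried, with 2 and 4 above the pooled median score and 2 and 6 above the pooled median fold.

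**Figure D3:**
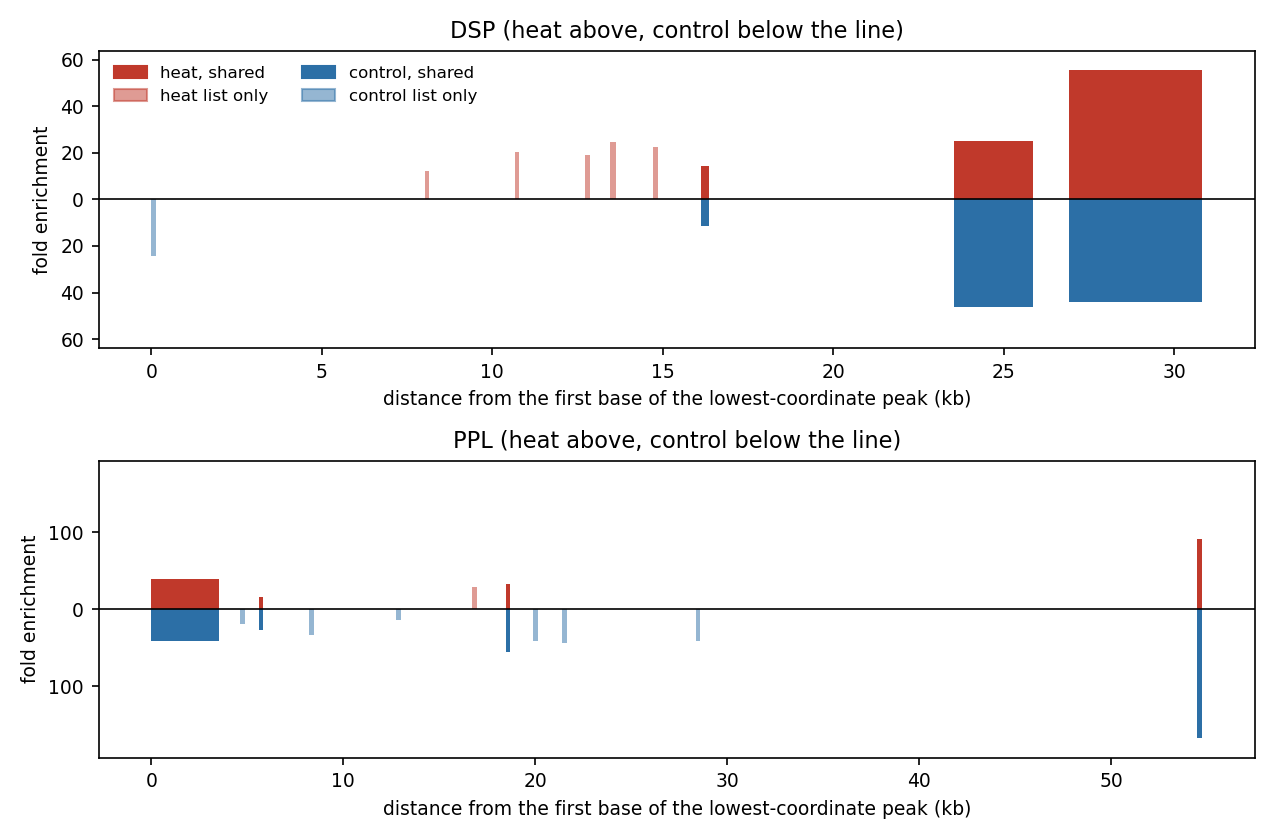
Peaks of DSP and PPL as distance in kb from the first base of the lowest-coordinate peak (x axis) and fold enrichment (bar height), heat above and control below the line, pale where only 1 list has the peak. In DSP 5 pale heat bars stand before the long shared blocks, and in PPL 6 pale control bars stand between the long shared block and the shared peak at the far end. Very short peaks are drawn slightly wider than they are so that they can be seen.

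PERP, a membrane protein with a role in desmosome assembly, had 1 heat peak of 397 bases at chromosome 6, 138428264 to 138428660, with a fold of 15.9 and a score of 278. Its listed false discovery rate was 81.1%. Its score was higher than that of 58.4% of the heat peaks and its fold higher than that of 11.7%. Between the flanking control peaks of TNFAIP3 and ARFGEF3, 5 numbers were unlisted. SFN, the 14-3-3 adaptor, had 1 peak with identical boundaries in both lists, at chromosome 1, 27189633 to 27190947. Its score was 3100 in both, and its fold was 39.5 in heat and 66.9 in control. SFN was thus listed in both conditions and PERP in heat only.

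Of the 9 peaks of the 5 heat-only genes, 6 scored above the heat list's median, and the second KRT15 peak and 2 JUP peaks scored below it. The best peak of each of the 5 genes scored above the heat list's median of 203, with the lowest of these scores at 278, while each of their 9 folds was below the median. Within the heat list, 12 of the 24 peaks of the 10 genes scored above the median and 6 were above the median fold. Within the control list 7 of 17 were above the median score of 267 and 6 above the median fold. The listed false discovery rate was 100% for 12 of the 24 heat peaks and 10 of the 17 control peaks. Among all heat peaks 53.2% had that value, and among all control peaks 48.5%. For the heat-only genes the rate was 29.2% for KRT5, 24.3% and 100% for KRT15, 22.2% for KRT17 and 81.1% for PERP. The 4 JUP peaks, by position, had 100%, 100%, 22.7% and 84.5%. The DSP, PPL and SFN peaks that scored 3100 had 34.4% in heat and 18.5% in control. The lowest rate of any peak of the 10 genes was 17.5%, for a DSP control peak.

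**Figure D4:**
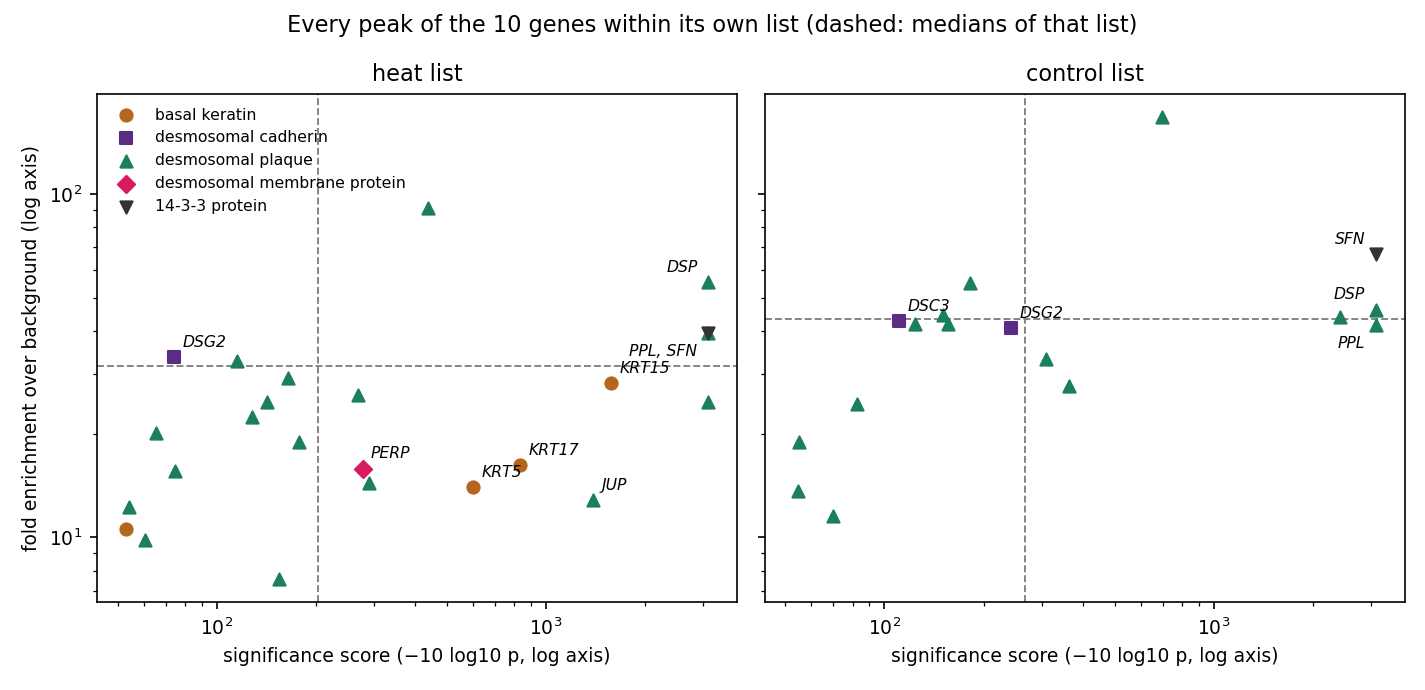
Fold enrichment (y axis, log) against significance score (x axis, log) for every peak of the 10 genes, heat list left and control list right, with dashed lines at the medians of each list and names at the best-scored peak of each gene. The named peaks of KRT5, KRT15, KRT17, JUP and PERP lie right of the score median (203) and below the fold median (31.6).

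Other genes of the same structures gave a context for these counts. Of 10 other desmosome genes 5 had a peak, all in both lists, with 16 heat and 16 control peaks and a median difference of 0 peaks per gene, which was also the median of all genes. The plakin EVPL, a partner of PPL, had 5 peaks in each list, the plakophilin PKP2 5 in heat and 4 in control, and PKP4 4 in each. Of 18 other keratins 8 had a peak. KRT78 was heat only with a fold of 124. KRT10, a keratin of differentiated layers, was control only with a fold of 10.1 and a score of 51.7. By gene symbol 6 were in both lists, although the heat and control peaks of KRT6B did not overlap. These lists and those below, like the 10 genes, were chosen with earlier results of these data known. Whether the lists differ from the 10 genes was not tested. The deposited annotation with the desmosome term was set beside these lists after the values were known. Apart from the 10 genes of this report it gave 10 genes, of which 1 was heat only, 0 control only and 9 in both lists. Among them DSC2, DSG3, EVPL, PKP2, PKP4 and KRT80 are already counted in the lists above. The intermediate filament term, chosen in the same way, gave 27 genes apart from the 10. Of these 5 were heat only, 2 control only and 20 in both lists. They had 61 heat and 47 control peaks and a median difference of 0 peaks per gene. This set also repeats genes of the lists, among them KRT8, KRT10, KRT14, KRT80 and PKP2.

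The hemidesmosome, which fixes the same keratin filaments to the basement membrane, had more peaks in heat. Of 8 genes 7 had a peak, with 43 heat and 16 control peaks, and 5 of the 7 had more in heat and 1 fewer, against 31.5% and 28.6% of all genes. The median difference was 3 peaks per gene. ITGB4, the integrin of the hemidesmosome, had 8 heat peaks and no control peak. The plakin PLEC had 3 heat and 1 control peak, the plakin DST 6 and 7, and ITGA6, the partner integrin of ITGB4, 4 in each. COL17A1, the transmembrane collagen of the hemidesmosome, named here after its values were seen, had 11 heat peaks and 1 control peak. Above a fold of 36.5 the list had 9 peaks in each condition. Adherens junction genes had 25 heat and 18 control peaks in 8 genes, all listed in both conditions, but 5 and 6 above a fold of 36.5. CDH3, the cadherin of basal cells, had 4 heat and 2 control peaks, and CTNND1, the p120 catenin, 6 in each.

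The other 6 14-3-3 genes all had a peak. YWHAQ, YWHAE and YWHAZ were heat only, and YWHAG, YWHAH and YWHAB were in both lists like SFN, so that 3 of 6 were heat only beside 13.2% of all genes. In the list of cornified envelope and differentiation genes 4 of 7 were in both lists, among them IVL, which like PPL builds the envelope, with 1 heat and 1 control peak. CSTA was heat only, and SPRR1B and GRHL3 were control only.

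**Figure D5:**
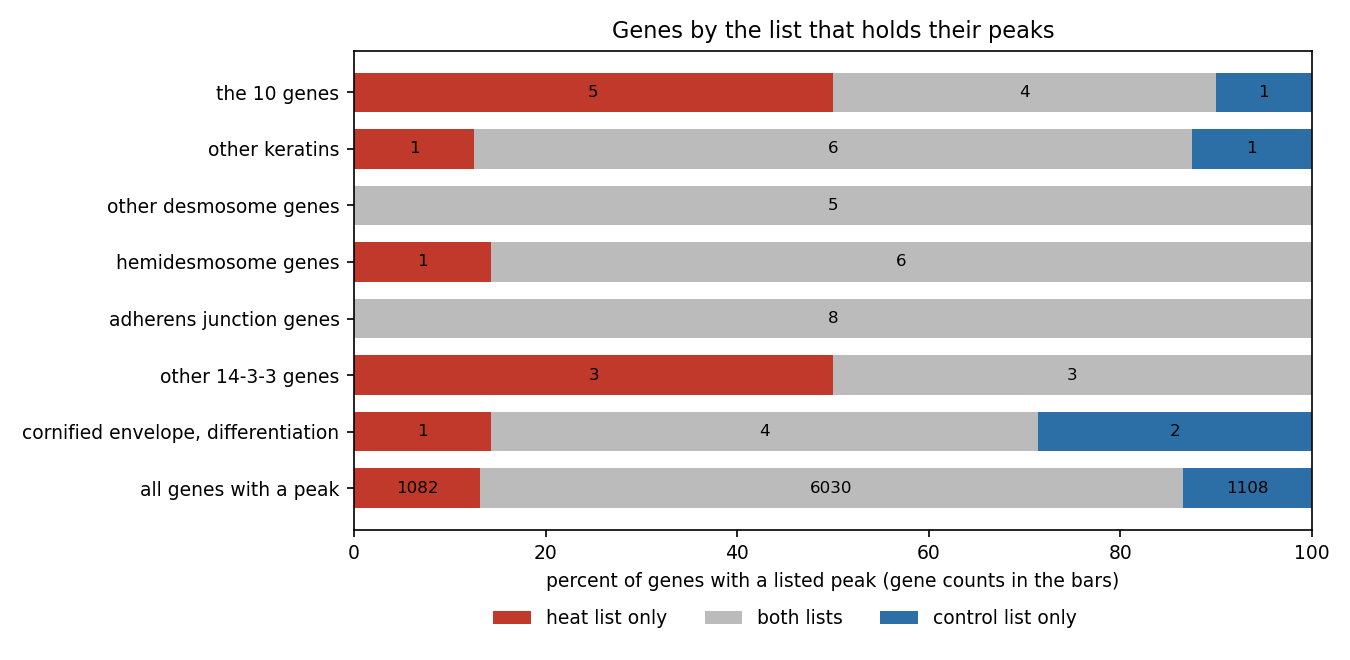
Share of the genes with a listed peak (x axis, percent) that were in the heat list only, in both lists or in the control list only, with gene counts in the bars. Of the 10 genes described 5 are heat only, 4 in both lists and 1 control only, beside 1082, 6030 and 1108 of all genes.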

How the data were processed

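The series holds 4 libraries of CaSki cells, 1 immunoprecipitated and 1 input library for heat (42 °C, 60 min) and for control (37 °C). The submitters' processing notes name cutadapt 1.9.3, STAR and the hg19 build. Peak names begin with MACS, per the file headers and names, with no version or setting stated. The authors deposited a score per peak, the p-value on a minus 10 log10 scale per the file headers, with many peaks at exactly 3100 and some above. The deposited fold enrichment is a ratio per the file headers. The false discovery rate is deposited as a percent per the file headers. Read totals are not in the analysed values, so depth is unknown. Starts were raised by 1 to give 1-based coordinates. The files give a transcript for each peak but no exon, UTR or strand. No hg19 sequence was used, so the planned motif search in peaks was not run.

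Peaks were taken by gene symbol and matched by overlap of at least 1 base (Python 3.11.15, pandas 2.3.3); matching was tested on simulated regions. All 10 symbols are in the RefSeq gene table (GRCh38.p14). RefSeq gave the strands and the promoter windows with their coordinates, while every peak coordinate came from the authors' lists (hg19). With 1 library per condition there was no test. The alternatives were limits on score, on fold and on the false discovery rate, lists of equal length, and an overlap of at least 50% of each region. The 10 genes and the gene lists were chosen with earlier results of these data known. All 10 genes are named, with their peaks given singly or as a range, and from each list at most 3 genes per class, by highest score (COL17A1 and neighbouring genes in the keratin and cadherin regions were named after their values were seen). One gene list and 1 further gene, left out of the hemidesmosome counts, are not reported here.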

Additional observations from a re-analysis of the deposited data

How the results depend on the processing

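The 5 heat-only genes (KRT5, KRT15, KRT17, JUP, PERP) stayed heat only with a score above 227.7, a listed false discovery rate under 100%, 14367 top peaks from each list and 7183 top peaks from each list, and they numbered 0 above a fold of 36.5, because each lost its peaks. The false discovery rate limit was lenient, since the only PERP peak passed it at a listed rate of 81.1%. DSP, PPL and SFN were in both lists under all 5 thresholds. The control-only genes numbered 2 above that fold (DSC3 and DSG2) and 1 with the score limit, which was DSG2 in place of DSC3. They numbered 0 with the false discovery rate limit and with 7183 top peaks. Among all genes left, 31.8% were control only above that fold, 22.8% with the score limit and 21.3% with the false discovery rate limit. With 7183 top peaks 20.9% were control only, and with 14367 top peaks 15.5%. The heat-only shares were 12.9% with the fold limit and with the score limit, and 13.9% with the false discovery rate limit. They were 14.7% with 7183 top peaks and 11.7% with 14367. Shared peaks numbered 8 in heat and 8 in control as deposited, 5 and 5 with the score limit, the false discovery rate limit and 7183 top peaks, and 4 and 4 with the fold limit. The difference in peaks, heat minus control, was 7 as deposited and 4 with the score limit. It was 5 with the false discovery rate limit, with 14367 top peaks and with 7183 top peaks. Only the fold limit reversed it, to -7. That limit kept 6405 heat and 8488 control peaks of the whole lists. An overlap of at least 50% of each region changed neither count of shared peaks. For DSP the difference turned from 4 to -1 with the fold limit. Among the gene lists, a check added after the data were seen, with the fold limit adherens junction genes turned from 7 to -1 and glandular markers from 2 to -1. Under the other thresholds the adherens junction difference was 2 to 5 and the glandular difference 2 to 3. No paired analysis was possible because each condition has 1 library. Unknown depth limits what an absent peak means: the unlisted numbers around each single-list peak of these genes were 2 to 9 in control and 1 to 16 in heat.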

Other observations

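Keratin symbols outside the lists were looked at after their values were seen. KRT75, a hair follicle keratin, was heat only with a fold of 286 and a score of 1692, and KRT34, a hair keratin, was heat only with 2 peaks, the better scored of 24.6-fold. KRT83, a hair keratin, and KRT9, a keratin of palm and sole skin, each had 1 peak in both lists. The KRT83 peak had a fold of 172 in heat and 30.8 in control. Among keratin-associated proteins of hair, KRTAP2-1, KRTAP2-2 and KRTAP2-4 were control only, and KRTAP2-3 was in both lists, with a fold of 44.7 in heat and 132 in control. Among all genes 13.2% were heat only and 13.5% control only. The KRTAP2 genes are near-identical copies, so their assignment is uncertain.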
